A study of Mus musculus with 16 samples.

Results

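The 2 main clusters of replication-dependent histone genes of the mouse were followed in lists of regions whose H3K27ac had been called as differing between cell types of the dendritic cell lineage. A listed region was taken where it overlapped the Hist1 window, chromosome 13 from 21600000 to 23960000, or the Hist2 window, chromosome 3 from 96030000 to 96130000, by at least 1 base (genome build mm9). This gave 645 of the 273958 regions of the 4 lists. The list of multipotent progenitors (MPP) against common dendritic cell progenitors (CDP) held 221 of 60816, with 200 in Hist1 and 21 in Hist2. The list of CDP against classical dendritic cells (cDC) held 158 of 76865, that of CDP against plasmacytoid dendritic cells (pDC) held 130 of 69958, and that of cDC against pDC held 136 of 66319. The members were chosen by their measured signal: a region stands in a list because its H3K27ac had been called as different between the same libraries that are compared here, so the values that follow describe the clusters and no test of them is given.

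H3K27ac is an acetylation of histone H3 found at active promoters and enhancers. It had been profiled in sorted C57BL/6 cells by sequencing of immunoprecipitated chromatin (ChIP-seq), with 2 libraries for each of the 4 cell types and no other treatment or genotype named in the labels. MPP are early blood progenitors, CDP are committed to the dendritic cell lineage, cDC present antigen to T cells and pDC are the interferon-producing type. The labels give no sex, animal or culture, and do not say if the paired libraries are separate animals or technical repeats. No sorting markers are named in them, and marker genes of the cell types were not looked up, since genes were not placed on mm9. With bulk chromatin, fewer cells that carry the mark and less mark per cell cannot be told apart.

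Replication-dependent histone genes supply the H1, H2A, H2B, H3 and H4 proteins that package newly copied DNA. They are transcribed mainly in S phase, lack introns, and give messenger RNAs that end in a stem-loop in place of a poly(A) tail. Dendritic progenitors divide, whereas mature dendritic cells, pDC above all, divide little. The lists hold no measure of division or of the share of cells in S phase, so the signal was not set against proliferation.

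In RefSeq's gene order (GRCm38.p6), the clusters hold 63 protein-coding histone genes, of which 53 are in Hist1 and 10 in Hist2. H1f6, the testis H1 gene in Hist1, is not counted here or below. No other gene was set apart by tissue. The 63 genes encode 5 H1, 17 H2A, 17 H2B, 12 H3 and 12 H4 proteins. Hist1 falls into 2 groups of histone genes, with 23 before and 30 after a long interval between H2bc11 and H4c8. That interval holds 75 genes named as vomeronasal receptors (Vmn1r, pheromone receptors of the nose), 36 of them protein coding. Between the outermost Hist1 genes also lie 77 tRNA genes, 4 Slc17a transporters, 2 butyrophilins, 2 zinc finger genes and the genes Hfe (an iron regulator), Trim38, Abt1, Prss16, Pom121l2 and Gm11295. Hist2 is compact, and its next protein-coding neighbours are Bola1 and Fcgr1. The build differs from that of the lists, so no region below is assigned to a gene.

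Promoters of these genes share short elements that differ by class. Entries were found for 58 of the 63 genes, and exact matches on either strand were counted in the 250 bases before each start. CCAAT stood in 48 of the 58 (82.8%) against 34.5% of the 27025 genes of the table, and it was in all 17 H2A, all 15 H2B and all 5 H1 promoters but in 3 of 11 H4 promoters. TATAAA stood in 28 (48.3%) against 13.0% of all genes. The octamer ATTTGCAT, a motif known from H2B promoters, stood in 12 (20.7%) against 1.61% of all genes, in 6 H2A and 6 H2B promoters and in no H1, H3 or H4 promoter. AAACACA, known from H1 promoters, stood in 4 of 5 H1 promoters, in 8 of all 58 (13.8%) and in 6.22% of all genes. The counts are not of separate sequences: the windows of the 10 divergent H2A and H2B pairs described below overlap. A match between the starts of such a pair counts for both genes. A match describes letters in the window and not a bound site.

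An example of each class is printed to show these elements, chosen after the sequences had been seen. Each line gives the 150 bases before the start, 5′ to 3′ on the gene's strand of chromosome 13, with exact matches to these 4 motifs on either strand in capitals.
H1f4 (minus strand): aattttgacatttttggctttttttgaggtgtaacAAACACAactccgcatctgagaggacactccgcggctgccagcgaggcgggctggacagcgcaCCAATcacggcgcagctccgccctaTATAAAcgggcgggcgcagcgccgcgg
H2ac8 (minus strand): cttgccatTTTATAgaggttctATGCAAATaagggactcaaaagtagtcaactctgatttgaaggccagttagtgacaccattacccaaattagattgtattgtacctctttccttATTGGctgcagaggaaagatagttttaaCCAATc
H2bc8 (plus strand): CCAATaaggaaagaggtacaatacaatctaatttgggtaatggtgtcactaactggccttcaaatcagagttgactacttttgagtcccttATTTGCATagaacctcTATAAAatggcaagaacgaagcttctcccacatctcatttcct
H3c2 (plus strand): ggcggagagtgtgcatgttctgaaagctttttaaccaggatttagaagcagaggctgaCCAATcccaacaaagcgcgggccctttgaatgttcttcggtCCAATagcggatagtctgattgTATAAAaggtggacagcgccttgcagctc
H4c4 (plus strand): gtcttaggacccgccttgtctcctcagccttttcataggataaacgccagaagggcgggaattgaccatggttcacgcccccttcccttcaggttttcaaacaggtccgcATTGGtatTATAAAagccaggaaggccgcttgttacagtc
H2ac8 and H2bc8 are transcribed away from each other from starts 180 bases apart, so their lines overlap as opposite strands. The octamer, the TATAAA match and the match written ATTGG in H2ac8 are the same bases in both lines. Such divergent H2A and H2B neighbours numbered 10, with 164 to 281 bases (median 204.5) between their starts.

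The listed regions formed islands rather than a continuous domain. Joined where less than 100 kb apart, they fell into 3 blocks in Hist1 and 1 in Hist2. The first Hist1 block was a single place of 1 kb near the window's edge, the second ran from 21801901 to 22143650 (341.75 kb) and the third from 23391051 to 23908250 (517.2 kb). None of the 4 lists had a region in the 1247.4 kb between the second and the third block. The Hist2 block spanned 77.35 kb, from 96028901 to 96106250. Joined where less than 1 kb apart, the regions of all lists gave 68 stretches, 59 in Hist1 and 9 in Hist2, of which 45 were listed in all 4 comparisons. The 15 stretches of at least 4 kb carried 87.5%, 86.3%, 85.6% and 81.5% of the clusters' listed signal in the MPP to CDP, CDP to cDC, CDP to pDC and cDC to pDC lists.

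Signal over both clusters was lower in each mature cell type than in CDP, and lower in pDC than in cDC over Hist1. The deposited signals are scaled per library and per list, so each value below is compared only within its list. Summed over Hist1 in the CDP to cDC list, the signal was 338646 and 528078 in the first- and second-listed CDP libraries and 204732 and 303666 in cDC. Both CDP libraries lay above both cDC libraries, with means that differed 1.70-fold. In the CDP to pDC list the Hist1 sums were 295914 and 467774 for CDP versus 162272 and 132270 for pDC, a 2.59-fold difference with no overlap. These 2 lists share the CDP libraries. In the cDC to pDC list, which does not use CDP, the Hist1 sums were 196375 and 287065 for cDC versus 187879 and 150569 for pDC, a 1.43-fold difference in which the lowest cDC library was close to the highest pDC library.

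Hist2 was also lower in both mature cell types than in CDP. Its sums were 48062 and 76147 for CDP versus 21429 and 39675 for cDC, a 2.03-fold difference. They were 41318 and 66147 for CDP versus 25727 and 23249 for pDC, a 2.19-fold difference, again with no overlap. Between cDC (18781 and 34869) and pDC (28949 and 25467) the Hist2 libraries overlapped, with a log2 ratio of pDC to cDC of 0.02.

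MPP and CDP could not be ordered from the sums. Over Hist1 the signal was 353880 and 236370 for MPP versus 260529 and 418783 for CDP, and over Hist2 it was 40773 and 26141 against 37641 and 61199. The libraries of the cell types overlapped in both clusters, with log2 ratios of CDP to MPP of 0.20 and 0.56. Without the second-listed MPP library the Hist1 ratio was -0.06, and without the second-listed CDP library it was -0.18.

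**Figure D1:**
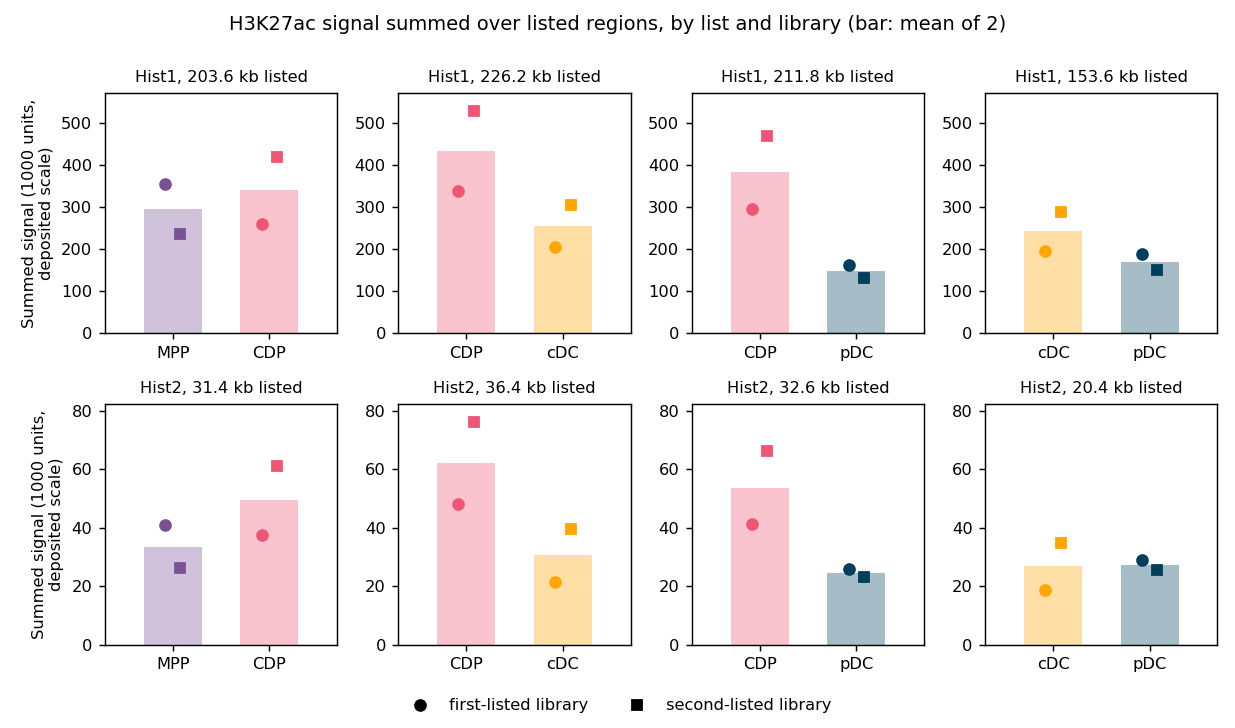
H3K27ac signal summed over the listed regions of Hist1 (top) and Hist2 (bottom), in units of 1000 on the deposited scale, for each library of the 4 lists; circles and squares are the first- and second-listed libraries and bars their mean. CDP libraries lie above cDC and pDC libraries in both clusters, while MPP and CDP libraries overlap.

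Libraries of a cell type differed over these clusters by more than over the lists as a whole. In the CDP to cDC list the second-listed CDP library held 1.56 times the Hist1 signal of the first, against 1.13 times over all listed autosomal regions. The first-listed MPP library held 1.50 times the Hist1 signal of the second, against 1.27 times over the list. The second-listed cDC library held 1.48 times that of the first, close to its 1.41 times over the list. The pDC libraries were closest, with the first at 1.23 times the second over Hist1 in the CDP to pDC list.

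The whole lists were not balanced between libraries, so the sums were also taken with each library's listed autosomal signal made equal. This moved the median log2 ratio over all regions from -0.12 to 0.02 for CDP over MPP, from 0.04 to -0.26 for pDC over CDP and from 0.20 to -0.26 for pDC over cDC. Hist1 then held 6.75 and 9.31 per 1000 units of autosomal signal in CDP against 4.87 and 5.14 in cDC. In the CDP to pDC list it held 6.92 and 9.47 per 1000 in CDP against 3.01 and 2.22 in pDC. CDP libraries thus stayed above those of both mature types. On this scale cDC (4.85 and 5.03 per 1000) lay clearly above pDC (2.92 and 2.15), a log2 ratio of -0.96 in place of -0.51. Hist2 was then also lower in pDC, at 0.450 and 0.364 per 1000 against 0.463 and 0.612 in cDC, a log2 ratio of -0.40. The median over all regions of that list was itself -0.26 on this scale, and the nearest Hist2 libraries, at 0.463 and 0.450, almost met. Log2 ratios of Hist2 to CDP were then -0.96 for cDC and -1.41 for pDC, in place of -1.02 and -1.13. MPP (6.96 and 5.93 per 1000) and CDP (6.84 and 9.42) still overlapped over Hist1, whereas over Hist2 both CDP libraries (0.989 and 1.38) lay above both MPP libraries (0.802 and 0.655).

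Directions were also counted over single regions, each with equal weight. Their calls differed in strength, with −log10 of the deposited p-value as low as 0.30. It was at least 10 in 33.0% of cluster regions for MPP to CDP, against 36.5% of the list. For CDP to cDC, CDP to pDC and cDC to pDC these were 53.8%, 66.2% and 54.4%, against 40.8%, 55.5% and 52.8%. In some regions, both libraries of the type called lower lay above both of the other. Of the cluster regions, 119 of 158 (75.3%) were called higher in CDP than in cDC, against 57.1% of the whole list. Higher in CDP than in pDC were 104 of 130 (80.0%), against 49.8%, and higher in cDC than in pDC were 95 of 136 (69.9%), against 43%. Higher in CDP than in MPP were 137 of 221 (62.0%), against 45.7%. In each list the clusters thus leaned further towards the named cell type than the list did. By group means with equal autosomal totals, the cluster regions higher in CDP than in MPP came to 81.9%, against 51.0% of the list, and those higher in cDC than in pDC to 89.0%, against 60.4%. Those higher in CDP than in cDC came to 74.1%, against 54.8%, and those higher in CDP than in pDC to 87.7%, against 58.4%. Because the lists were called on these libraries, the shares show where the clusters lie within their list and are not independent evidence of a direction.

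**Figure D2:**
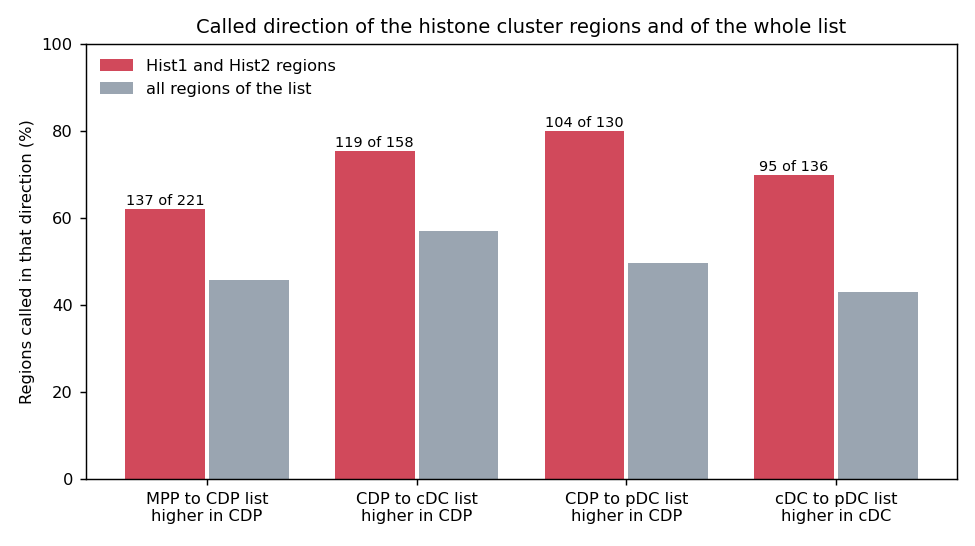
Percent of regions called higher in the named cell type, for the Hist1 and Hist2 regions (red, with counts) and for all regions of the list (grey). The cluster regions exceed their list in all 4 comparisons, by the widest margin for CDP over pDC (80.0% against 49.8%).

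Requiring both libraries of a cell type to lie above both of the other kept the contrasts with mature cells and not that with MPP. Both CDP libraries were above both cDC libraries in 79 of 158 cluster regions (50.0%), against 36% of the list, or 37.6% of it with equal autosomal totals, where the clusters had 87. Both CDP libraries were above both pDC libraries in 91 of 130 (70.0%), against 37.8%. With equal totals these were 99 of 130 and 48.3%. On the deposited scale, the CDP to pDC list had the largest share of cluster regions of this kind. Both cDC libraries were above both pDC libraries in 58 of 136 (42.6%), against 26%, and with equal totals in 108 of 136, against 48.5%. With equal totals the share for cDC over pDC (79.4%) was thus above that for CDP over pDC (76.2%). Both CDP libraries were above both MPP libraries in only 31 of 221 (14.0%), below the 26.8% of the list, and with equal totals in 84 of 221 (38.0%), near its 36%.

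Cluster regions had more signal than the typical region, with 37.7% to 48.9% of them in the top 25% of their list. The direction was therefore also read among regions of that signal. There, 47 of 66 cluster regions were called higher in CDP than in cDC, against 53.2% of all such regions, and 40 of 49 higher in CDP than in pDC, against 45.2%. Higher in cDC than in pDC were 48 of 61, against 37.1%, and higher in CDP than in MPP were 67 of 108, against 36.1%.

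Signal beside the windows did not follow that of Hist1. In flanks as long as the Hist1 window, the log2 ratio of summed signal of pDC to CDP was 0.03 to the left and 1.31 to the right, against -1.37 in the window. For cDC over CDP it was -0.10 and -0.15 in the flanks, against -0.77. The Hist2 flanks held 4 to 12 regions in these 2 lists, with log2 ratios of -0.49 and -0.62 for cDC and -0.26 and -0.24 for pDC, against -1.02 and -1.13 in the window. Histone genes were not placed on mm9, so whether the flanks hold any was not checked. The regions nearest to the window edges were mixed. The Hist1 region closest inside the left edge, 21622351 to 21623000, had 1103 and 1464 for CDP versus 1422 and 1327 for pDC, and that closest outside, 21598251 to 21598700, had 337 and 528 against 290 and 404. On the right, 23907851 to 23908100 had 49 and 130 for CDP versus 0 and 2 for pDC, and the region outside it, 23971451 to 23971700, had 51 and 125 against 65 and 26. Libraries overlapped in these edge regions except 23907851 to 23908100, the weakest in pDC. At Hist2, the outside region 96024251 to 96027450 had 6558 and 11046 for CDP versus 6163 and 5235 for pDC, and its libraries did not overlap. The inside neighbour on that side, 96029501 to 96032300, differed far more and is described with Hist2. On the right the sides went opposite ways, since the outside region 96132001 to 96132500 had 176 and 306 for CDP versus 19 and 58 for pDC, and the inside region 96104301 to 96105950 had 586 and 607 for CDP versus 1903 and 1967 for pDC.

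Both parts of Hist1 showed the lower signal of mature cells. The block from 21801901 to 22143650 had 122361 and 183046 for CDP versus 62319 and 94244 for cDC, a 1.95-fold difference, and 106492 and 161384 for CDP versus 46549 and 37210 for pDC, a 3.20-fold difference. The block from 23391051 to 23908250 had 214730 and 343006 for CDP versus 141033 and 207865 for cDC, a 1.60-fold difference, and 188162 and 304730 versus 114115 and 93511 for pDC, a 2.37-fold difference. Libraries did not overlap in any of these 4 contrasts. The single place near the left edge overlapped in both, with log2 ratios of -0.29 for cDC and 0.11 for pDC.

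The 8 stretches with the largest signal, 6 in Hist1 and 2 in Hist2, carried 73.8%, 73.0%, 72.5% and 68.9% of the listed cluster signal in the 4 lists. All 8 were lower in cDC than in CDP, by 1.66- to 2.56-fold, and all 8 were lower in pDC than in CDP, by 2.02- to 4.51-fold. Their libraries did not overlap in either contrast. All 8 means were higher in CDP than in MPP, by log2 ratios of 0.12 to 0.68, but the libraries of 7 overlapped. Between cDC and pDC, 5 of the 8 had both cDC libraries above both pDC libraries, whereas the 29.7 kb stretch of Hist1 and the 2 in Hist2 overlapped. The 8 were ranked by signal summed over the 4 lists, in which CDP is compared most often. Stretches were not built outside the clusters, so no share over the whole lists stands beside these counts.

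The longest stretch, 23621301 to 23681650 of Hist1 (60.35 kb), had 99957 and 159525 for CDP versus 58780 and 87843 for cDC. In the CDP to pDC list it had 88013 and 142172 for CDP versus 43840 and 33908 for pDC. These are mean signals of 2333 per listed kb in CDP against 1319 in cDC, and of 2149 in CDP against 726 in pDC. It was listed as 46 regions for MPP and CDP, with 15 of them called higher in MPP, and as 16 for CDP and pDC, with 15 called higher in CDP. The next longest of the 8, 23827801 to 23857500 (29.7 kb), had the smallest fold for cDC, with 61344 and 97230 for CDP versus 37854 and 57563. The widest pDC difference of the 8 was at 22125651 to 22137850 (12.2 kb), with 19259 and 31588 for CDP versus 6935 and 4347 for pDC. This last stretch lies near the right end of the second block, with 1 further stretch, 22141001 to 22143650, before the long interval without listed regions.

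**Figure D3:**
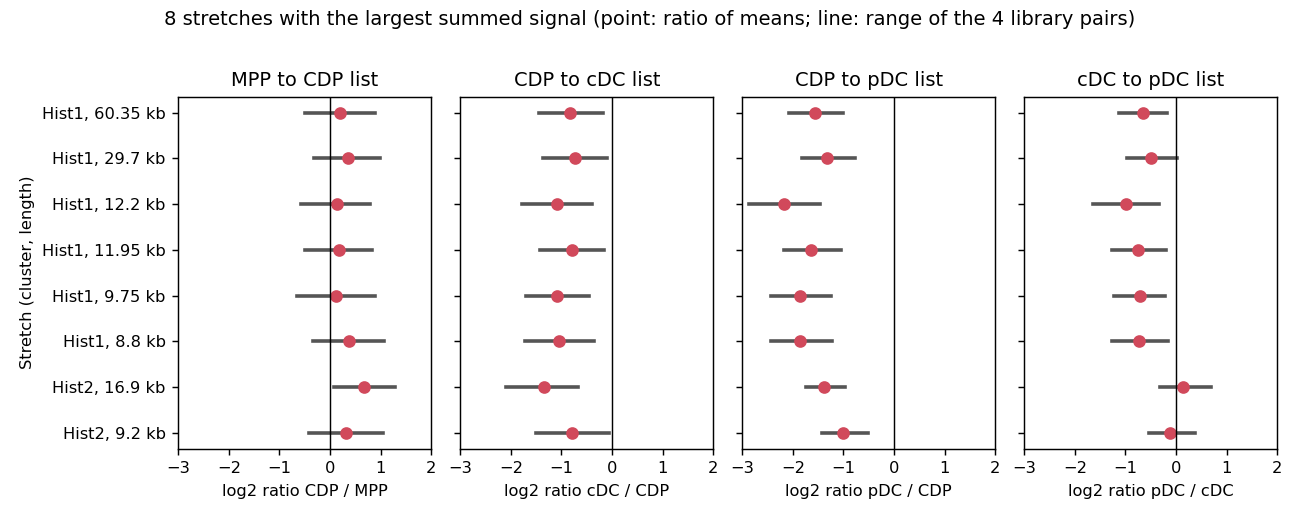
Log2 ratio of the second over the first cell type for the 8 stretches with the largest summed signal, labelled by cluster and length, in the 4 lists; points are ratios of the means and lines span the 4 pairings of single libraries. The lines stay below 0 for cDC over CDP and pDC over CDP in all 8, and cross 0 for CDP over MPP in 7.

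The strongest single region of each list is part of these stretches and adds no separate observation. By signal in the higher cell type, the strongest region for CDP against pDC, 23828701 to 23853200 (24.5 kb), had 43884 and 70994 for CDP versus 24804 and 18702 for pDC. The strongest for CDP against cDC, 23838051 to 23853250, had 28597 and 46635 for CDP versus 15501 and 24811 for cDC. For MPP and CDP the strongest was 23830651 to 23838100, with 19504 and 12951 for MPP versus 15413 and 23722 for CDP, so that its libraries overlapped although the region was called. All of these lie within the 29.7 kb stretch. In the cDC to pDC list the strongest, 23621501 to 23629350, had 13144 and 19297 for cDC versus 10928 and 7572 for pDC.

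A place of 4.2 kb was lower at each step from MPP through CDP to mature cells. The region 21941851 to 21946050 of Hist1 had 7794 and 6514 for MPP versus 3907 and 4033 for CDP, a 1.80-fold difference, and had the highest signal in the higher cell type among regions called against the majority in that list. The same stretch had 4578 and 4643 for CDP versus 491 and 1929 for cDC, and 3993 and 4113 for CDP versus 538 and 419 for pDC. Libraries did not overlap in these 3 contrasts. Of the 15 stretches of at least 4 kb it had the only lower mean in CDP than in MPP.

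Short stretches were far more variable. The 15 stretches of at least 4 kb were all lower in cDC and all lower in pDC than in CDP, with log2 ratios of -2.48 to -0.44 and -5.68 to -0.94, and without overlap of libraries in 12 and 15 of them. As above, neither these counts nor those of shorter stretches have a share over the whole lists beside them. Of the stretches under 4 kb, 40 of 50 were lower in cDC and 36 of 47 were lower in pDC, with log2 ratios of -4.77 to 1.64 and -7.66 to 2.71. Such stretches held 13.7% and 14.4% of the listed cluster signal, and the SD of their log2 ratios was 1.64 and 2.43, against 0.55 and 1.19 for the longer ones. The lowest ratios come from signals near 0, of 0 and 1 in cDC and of 2 and 0 in pDC. The range and SD thus depend on the pseudocount, and no other was tried on stretches.

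**Figure D4:**
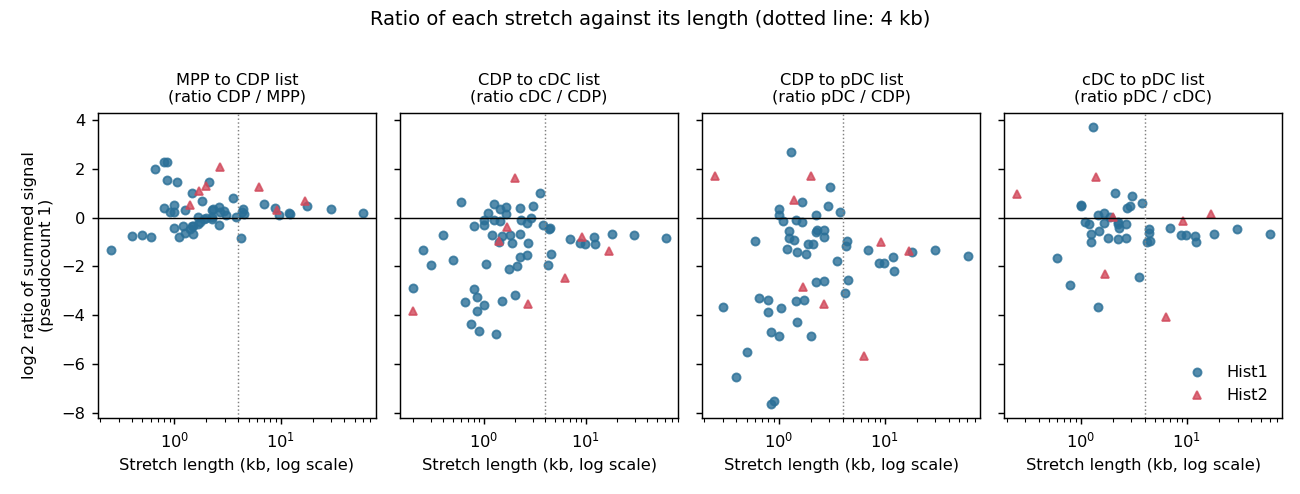
Log2 ratio of summed signal (pseudocount 1) of each stretch against its length in kb on a log axis, for Hist1 (circles) and Hist2 (triangles) in the 4 lists, with a dotted line at 4 kb. All 15 longer stretches lie below 0 for cDC over CDP and for pDC over CDP, and the shorter ones spread from -7.66 to 2.71 in the pDC comparison. The lowest value rests on pDC signals of 2 and 0.

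Ratios were ranked among regions without overlap of libraries and with at least the median signal of cluster regions, taken in the higher cell type. The Hist1 regions with the largest ratios were 0.9 to 3.4 kb long, against 600 to 750 bp for the median cluster region. Larger ratios occurred at weaker regions and are not given singly. The Hist1 region 21947151 to 21948050 had 562 and 812 for CDP versus 0 and 45 for pDC, and its counterpart 21947101 to 21948100 had 662 and 944 for CDP versus 22 and 109 for cDC. The Hist1 region 22010001 to 22011850 had 1138 and 932 for CDP versus 54 and 16 for pDC. At 23820351 to 23821750, cDC had 868 and 970 versus 65 and 77 for pDC.

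Some Hist1 regions went against the majority of their list. At 23608401 to 23611050, pDC had 2892 and 2665 versus 815 and 1307 for CDP, a 2.62-fold difference without overlap. At 23521901 to 23524700, pDC had 8668 and 6946 versus 4309 and 5698 for cDC, whereas against CDP the pDC libraries (5118 and 4177) and CDP libraries (2435 and 4251) overlapped at 23523001 to 23524700. At 23536901 to 23538150, cDC had 2217 and 2911 versus 1422 and 2086 for CDP. The strongest Hist1 region called higher in cDC than in CDP, 23829751 to 23830600, had 2591 and 3460 in cDC and 2213 and 3977 in CDP, so that its libraries overlapped and its mean was lower in cDC.

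Hist2 was read stretch by stretch, since only 9 make it up. Its left edge, 96028901 to 96035200 (6.3 kb), changed with each step. It had 1726 and 829 for MPP versus 2400 and 3639 for CDP, a 2.36-fold difference without overlap. It had 3298 and 5033 for CDP versus 691 and 801 for cDC, a 5.58-fold difference, and 2639 and 3982 for CDP versus 52 and 75 for pDC, a 51.3-fold difference. Directly compared, cDC had 279 and 363 versus 18 and 18 for pDC. The strongest part of this stretch, 96029501 to 96032300, had the largest ratio of all regions named for CDP and pDC, with 2437 and 3619 against 29 and 54.

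The 2 broad Hist2 stretches differed less between the mature types. The first, 96040851 to 96057750 (16.9 kb), was the only one of the 8 strongest with both CDP libraries (17296 and 26347) above both MPP libraries (16431 and 10800). It had 21407 and 32106 for CDP versus 7528 and 13401 for cDC, and 18361 and 27988 for CDP versus 9391 and 8406 for pDC. CDP was thus above MPP, cDC and pDC over this stretch in every library. Within it, 96054251 to 96057000 had 3859 and 5614 for CDP versus 1490 and 1118 for MPP, a 3.63-fold difference. Nearly the same place, 96054401 to 96056900, had 4989 and 5067 for pDC versus 810 and 1531 for cDC, the highest pDC signal of the Hist2 regions called higher in pDC. The other broad stretch, 96065351 to 96074550 (9.2 kb), had 20100 and 33447 for CDP versus 11745 and 19222 for cDC, and 17689 and 29853 for CDP versus 12420 and 11099 for pDC. Inside it, 96067301 to 96068150 and 96066851 to 96067900 were called higher in MPP than in CDP and higher in pDC than in cDC, with ratios of 1.04 and 1.06 and overlapping libraries.

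The short Hist2 stretches differed in direction between CDP and mature cells, whereas all 4 that were listed for MPP and CDP had both CDP libraries above both MPP libraries. The stretch 96058801 to 96061500 was higher in CDP than in each other cell type, with 299 and 134 for MPP versus 539 and 1276 for CDP, 732 and 1702 for CDP versus 21 and 183 for cDC, and 618 and 1472 for CDP versus 97 and 78 for pDC. The stretch 96096651 to 96098350 had 440 and 321 for MPP versus 556 and 1068 for CDP. It had 620 and 1136 for CDP versus 134 and 110 for pDC, while its cDC libraries stood far apart, at 179 and 1473 versus 761 and 1377 for CDP. The rightmost, 96104251 to 96106250, was higher in mature cells. It had 216 and 147 for MPP versus 421 and 463 for CDP. It had 586 and 607 for CDP versus 1903 and 1967 for pDC, a 3.24-fold difference, and 704 and 738 for CDP versus 796 and 3691 for cDC, where the difference rests on the second-listed library. The stretch 96081501 to 96082900 had 779 and 727 for MPP versus 846 and 1338 for CDP, and 477 and 907 for cDC versus 2363 and 1977 for pDC. The remaining 2 Hist2 stretches were short and weak. At 96062701 to 96062900, listed for CDP and cDC alone, the signal was 16 and 96 for CDP versus 6 and 0 for cDC, and at 96088251 to 96088500 it was 7 and 30 for CDP versus 63 and 61 for pDC, and 26 and 63 for cDC versus 94 and 80 for pDC.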

How the data were processed

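Sorted cells were cross-linked, and their chromatin was broken into pieces of 200 to 400 bp for precipitation with an H3K27ac antibody, per the labels' protocols. Reads were aligned with BWA 0.6.1 to mm9, per the submitters' processing notes. The series title names THOR, whose version and settings the sources used here do not give, nor how reads matching several near-identical histone gene copies were placed. The authors' deposited lists give, for each region, a direction, the signals of 2 libraries per cell type and −log10 of a p-value. The deposited signals are not read counts but whole numbers scaled per library and list, so depth is unknown. A last, unnamed column was not used, and the Input and RNA data were left out as not analysed here. Which value belongs to which cell type follows the names of the lists. In regions with identical bounds in 2 lists, 10 pairs of values for the same library differed by a factor of 0.809 to 1.14 with a log2 SD of at most 0.0498, against an SD of 0.355 or more in the other 86. MPP is in 1 list only.

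Signals were summed per library over the listed regions of a cluster, and ratios are of group means, with a pseudocount of 1. With 2 libraries a side, the smallest exact permutation p is 0.333, and none is given. The named regions of each list are the 3 with the highest signal, the 3 with the largest ratio among those with separate libraries and at least median signal, and the 3 strongest against the majority. The rule also takes every block, every Hist2 stretch, the 8 stretches with the largest signal and the regions nearest to the window edges; which of these are given with values was chosen after they had been seen. Members, lists and rules were chosen with earlier results of these data known. Alternatives were equal autosomal totals, leaving out each library, −log10 p of at least 10, regions of at least 500 bp, regions inside the window, separate libraries, listed bases, medians and pseudocounts of 0.5 and 5. Ratios were tested on simulated data. Gene names, order and promoters are RefSeq's (GRCm38.p6), and no coordinate of that build is given. Python 3.11.15 was used with pandas 2.3.3 and numpy 2.4.6, and figures were drawn with matplotlib 3.10.9.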

Additional observations from a re-analysis of the deposited data

Results flagged for a closer look

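At 4 stretches the summed signal of cDC and pDC lay on opposite sides of CDP, with both libraries of each on one side of both CDP libraries. The regions behind the sums differ between the lists: they overlap in part at 3 stretches and not at all at the first. The difference between the 2 changes was not tested, both comparisons share the CDP libraries, and the stretches are short.

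At 21950501 to 21951800 of Hist1, the log2 ratio was -4.77 for cDC over CDP and 2.71 for pDC over CDP. These come from different places, with 34 and 46 in CDP against 0 and 1 in cDC at 21950501 to 21950650, and 32 and 45 in CDP against 207 and 307 in pDC at 21950901 to 21951700, so no shared sequence went both ways. At 22073151 to 22073750 of Hist1 the ratios were 0.64 and -0.96, from 167 and 228 in CDP against 250 and 366 in cDC and from 88 and 157 in CDP against 47 and 78 in pDC.

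At 23806851 to 23810400 of Hist1 the ratios were 1.03 and -1.80. The signal was 882 and 2024 in CDP against 2083 and 3849 in cDC, and 619 and 1559 in CDP against 173 and 453 in pDC, and this stretch was also higher in cDC (2116 and 3743) than in pDC (352 and 736) in their own list. At 96081501 to 96082900 of Hist2 the ratios were -0.98 and 0.73, with 1044 and 1648 in CDP against 463 and 904 in cDC and 798 and 1079 in CDP against 1667 and 1453 in pDC.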

How the results depend on the processing

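Of 124 alternatives for the sums and shares, 82 stayed within the spread between libraries (for shares, the binomial interval), 32 moved further and 10 turned the direction; the cause was not tested. Leaving out each library gave log2 ratios of CDP over MPP of -0.18 to 0.52 in Hist1 and 0.17 to 0.92 in Hist2, and turned Hist1 without the second-listed MPP library (-0.06) or the second-listed CDP library (-0.18). For cDC over CDP it gave -1.08 to -0.41 and -1.54 to -0.65. For pDC over CDP it gave -1.67 to -1.01 and -1.43 to -0.75. For pDC over cDC it gave -0.76 to -0.21 in Hist1 and -0.36 to 0.53 in Hist2, where leaving out the first-listed cDC library (-0.36) or the first-listed pDC library (-0.07) turned the ratio of 0.02. With equal autosomal totals the ratios of pDC over cDC were -0.96 in Hist1 and -0.40 in Hist2, against a median of -0.26 over the whole list. On the deposited scale the median over Hist2 regions was -0.27. Equal totals together with a library left out, chosen after seeing the data, gave 0.09 to 0.55 in Hist1 and 0.44 to 0.92 in Hist2 for CDP over MPP, with no turn. It gave -0.89 to -0.43 and -1.18 to -0.70 for cDC over CDP, -1.88 to -1.40 and -1.63 to -1.16 for pDC over CDP, and -1.20 to -0.76 and -0.59 to -0.19 for pDC over cDC.

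The share of cluster regions higher in MPP than in CDP was 38.0%. It was 18.1% with equal totals, 12.3% with −log10 p of at least 10, 29.5% with separate libraries, 29.3% at 500 bp or more and 22.0% of listed bases. Leaving out a library gave 12.2% to 69.7%, with 54.3% without the second-listed MPP and 69.7% without the second-listed CDP library. The share higher in CDP than in cDC (75.3%) was 91.8% at the stricter p, 86.5% with separate libraries, 89.2% of bases and 63.3% to 87.3% without a library. The share higher in CDP than in pDC (80.0%) was 87.7% with equal totals, 89.5% at the stricter p, 88.3% with separate libraries, 93.1% of bases and 72.3% to 87.7% without a library. The share higher in cDC than in pDC (69.9%) was 89.0%, 85.1%, 77.3% and 82.2% in the same order, and 52.2% to 82.4% without a library, the lowest without the second-listed cDC library. With equal totals, 58.4% of the whole CDP to pDC list was higher in CDP. The other settings were applied to the cluster regions only, so how far the whole lists move with them is unknown. The 24 ratios of single regions under other pseudocounts stayed within the spread. No paired analysis was possible because the listed values carry no replicate number. Depth is unknown, so counting error could not be given, and with 2 libraries per cell type the spread is itself poorly known. Regions without a differing call are not in the lists, so the sums cover listed bases only.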
